A study of Mus musculus with 6 samples.

Results

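The mitochondrial ribosomal protein genes are the nuclear genes whose products build the ribosome inside mitochondria. They were taken as every gene whose symbol starts with Mrpl or Mrps followed by a digit, on probe sets that the platform annotation maps to exactly 1 symbol, with the probe set of highest mean over all arrays standing for a gene. This gave 76 of the 18194 genes tested, 47 named Mrpl and 29 named Mrps. Expression was measured in livers of transgenic C57BL/6 mice that carry the human drug-metabolising gene CYP2D6, with 1 Affymetrix array per biological replicate. The 3 groups are livers taken at pre-pregnancy, at pregnancy day 21 and at postpartum day 7, with 2 replicates each (6 arrays). Every group carries the transgene and no group without it is used here. The labels do not give the promoter behind the transgene, the ages, the feeding state or whether animals were pooled.

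The mitochondrial ribosome translates the few proteins that mitochondrial DNA encodes, all of them core subunits of the respiratory chain and the ATP synthase. Its large subunit carries the peptidyl transferase centre and the exit tunnel, and its small subunit binds and decodes the mRNA. Its ribosomal RNAs are made in the organelle, whereas all of its proteins are made in the cytosol and imported, so that the nuclear genes described here have to be matched to a genome they do not reside in. Compared with bacterial ribosomes it has gained many proteins with no bacterial counterpart. Liver is rich in mitochondria, which there serve fatty acid oxidation, the urea cycle, ketogenesis and gluconeogenesis beside ATP synthesis.

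All 76 genes were bright. Their mean signals ran from 8.05 (Mrps27) to 11.97 (Mrpl39) on the log2 scale of the deposited values, against a median of 6.38 over all genes, and the 40th percentile of all genes was 5.52. The dimmest after Mrps27 were Mrpl19, Mrpl45 and Mrps25, and the brightest beside Mrpl39 were Mrpl12, Mrpl15 and Mrpl51. Signals of different probe sets depend on their probes as well as on the RNA, so this order is no order of mRNA amounts. Since bright genes shifted as a class between stages, the 5684 genes at least as bright as the dimmest member are given as a second background. That background was chosen after the data were seen.

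Array medians over all probe sets lay between 5.09 and 5.15, and replicate arrays correlated across genes at 0.9941 to 0.9969. The labelled tissue was borne out by hepatocyte markers: 7 of 8 listed genes were measured, with a mean log2 signal of 14.1 to 14.19 on each array and 0 of the 7 called in any comparison. The 2 pre-pregnancy arrays stood apart over the ribosomal protein genes. Replicate 1 was the higher of the pair for 65 of the 76 genes, with 6 lower and 5 equal, and by a median of 0.13, whereas it was the higher for 51% of all genes. The pregnant pair differed by a median of 0.04 (replicate 1 higher for 48) and the postpartum pair by 0.05 (replicate 2 higher for 46). The labels call the replicates biological and say no more, so the p-values measure the spread between these samples only.

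In late pregnancy most of the genes stood slightly lower than before pregnancy, and at day 7 after birth most stood higher again. The median array deviation shows this. With each gene set to its own mean over the 6 arrays, the median of the 76 genes was 0.10 and -0.02 on the pre-pregnancy arrays, -0.07 and -0.14 on the pregnant arrays, and 0.05 and 0.10 on the postpartum arrays. Both pregnant arrays thus lay below the other 4, while pre-pregnancy replicate 2 lay closer to pregnancy replicate 1 than to its own partner. For the genes of at least equal brightness the same medians were 0.04 and -0.01, -0.04 and -0.05, and 0.03 and 0.03. Both pregnant arrays were again the lowest, over a smaller range.

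**Figure D1:**
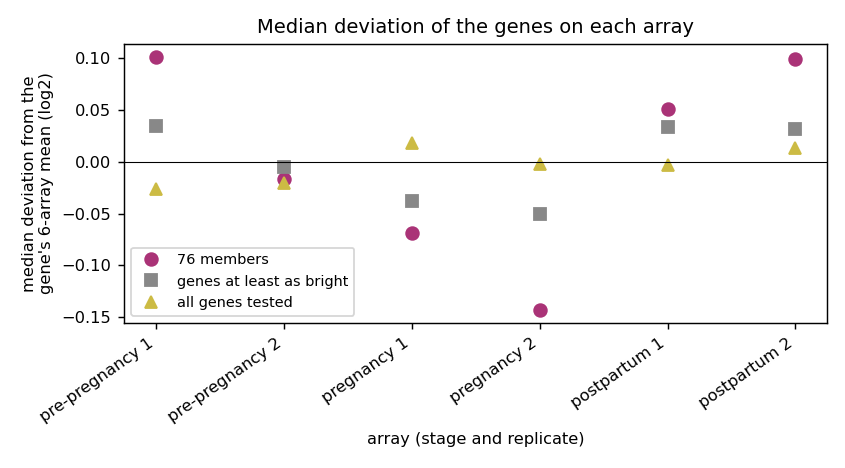
Median over genes of the log2 value minus the gene's own mean over 6 arrays, for each array (x axis, stage and replicate), for the 76 mitochondrial ribosomal protein genes (circles), the genes at least as bright as the dimmest of them (squares) and all genes tested (triangles). The circles of the pregnant arrays (-0.07 and -0.14) lie below the other 4, and those of the pre-pregnancy arrays are apart at 0.10 and -0.02.

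Of the 76 genes, 51 had their lowest stage mean in pregnancy, 17 before pregnancy and 8 postpartum. Mrpl44, whose means before and in pregnancy were equal, is counted among the 17. Over all genes 31.1% had their lowest mean in pregnancy, and over the genes of at least equal brightness 43.4%. The highest stage mean was postpartum for 41, before pregnancy for 29 and in pregnancy for 6. Both pregnant arrays lay below all 4 other arrays for 33 of the 76 genes (43.4%), against 13.8% of all genes and 22.9% of those at least as bright. By symbol, 19 of the 47 Mrpl genes and 14 of the 29 Mrps genes had this order.

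**Figure D2:**
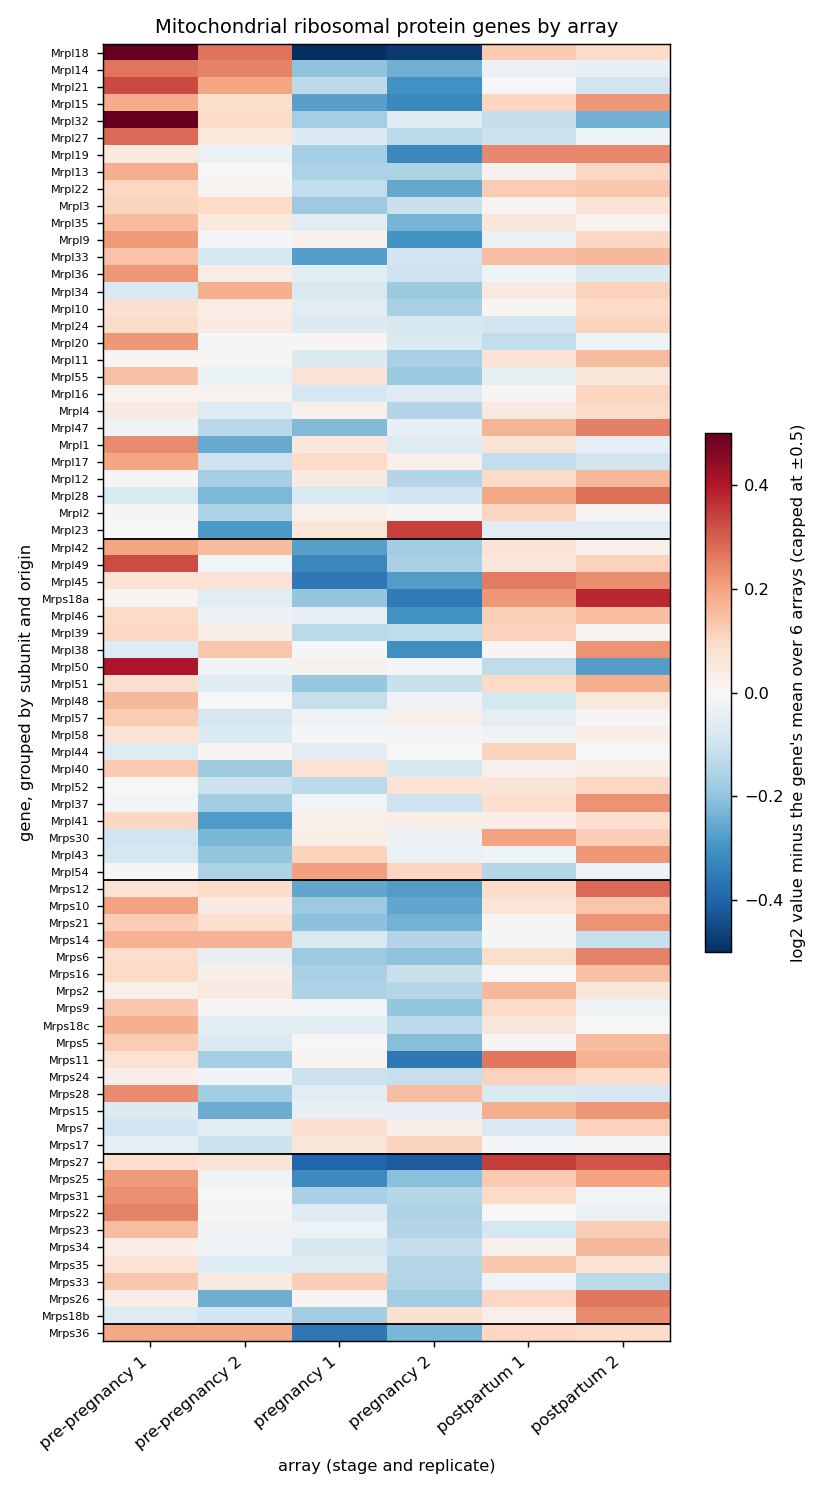
Each of the 76 genes (rows) on each of the 6 arrays (columns), coloured by its log2 value minus the gene's own mean over the 6 arrays, with the scale capped at 0.5 either way. Black lines separate, from the top, large subunit proteins with a bacterial counterpart, large subunit proteins specific to mitochondria, small subunit proteins with and then without a counterpart, and Mrps36. Blue prevails in the pregnant columns, and pre-pregnancy replicate 1 is redder than replicate 2.

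The first comparison set late gestation against the state before it. The median difference of the 76 genes was -0.16 on the log2 scale, that is 10.3% lower, against 0.05 for all genes and -0.07 for the genes of at least equal brightness. The mean was lower in pregnancy for 57 genes (75%) and higher for 19. Counted among the 57 is Mrpl44, whose means were in fact equal (9.805 at both stages). It was lower for 42.4% of all genes and for 57.7% of those at least as bright. limma's test at an adjusted p of 0.05 called 8 of 76 lower (10.5%), where 8.25% of all genes and 12.5% of the genes at least as bright were called lower, so the share of calls was near the background. It called 0 higher, where 5.46% of all genes and 7.92% of the bright ones were. At an unadjusted p under 0.05 these counts were 20 lower and 1 higher. They were 2867 and 2770 over all 18194 genes, and 1407 and 881 over the 5684 bright ones. In both arrays, 41 genes lay below both pre-pregnancy arrays (26.0% of all genes and 40.7% of the bright ones did) and 7 lay above (33.6% and 27.0%). Without pre-pregnancy replicate 1 the median was -0.10 and 1 gene was called, and without replicate 2 it was -0.24 and 1 gene was called. Without pregnancy replicate 1 or 2 there were 4 and 2 calls, and without either postpartum array 4. When the arrays were quantile-normalized again the median was -0.06 and 3 genes were called, Mrpl14, Mrpl18 and Mrps27.

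On the probe sets used, Mrpl18 had the largest fall. It encodes the mitochondrial member of the L18 family, which in bacteria binds 5S rRNA. Before pregnancy its log2 signals were 10.20 and 9.92, at day 21 they were 9.09 and 9.17, and postpartum they were 9.78 and 9.74. The pregnant pair was far below both other pairs, and the postpartum pair lay between. The difference in pregnancy was -0.93 ± 0.1212 SE, 1.91-fold lower (adjusted p = 0.00433). Its call was kept under each of the 13 alternatives with a fit of their own, with each of the 6 arrays left out among them (-1.07 to -0.79, adjusted p 0.0104 to 0.0455). Mrpl18 has a single probe set.

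Mrps27 encodes an RNA-binding protein of the small subunit built of pentatricopeptide repeats. Before pregnancy its signals were 8.14 and 8.12, at day 21 they were 7.66 and 7.64, and postpartum 8.40 and 8.37, so that the replicates differed by no more than 0.03 in the last pair and the 3 stages did not overlap. Its difference in pregnancy was -0.48 ± 0.0962 SE (adjusted p = 0.0186). It no longer passed when pregnancy replicate 2 or either pre-pregnancy array was left out (adjusted p up to 0.119). Mrpl45, a large subunit protein at the tunnel exit that faces the inner membrane, behaved likewise at 8.47 and 8.47, then 8.04 and 8.12, then 8.66 and 8.63. Its difference in pregnancy was -0.39 ± 0.098 SE (adjusted p = 0.0377), a call lost whichever of the 6 arrays was left out and after repeated quantile normalization (-0.27).

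The other 5 genes that fell were Mrps36, Mrpl14, Mrpl21, Mrpl15 and Mrpl42. Mrps36 was named as a small subunit protein and is now known as an adaptor of the 2-oxoglutarate dehydrogenase complex, so it lies outside the ribosome. It stood at 9.11 on both pre-pregnancy arrays, at 8.56 and 8.69 in pregnancy and at 9.02 and 9.01 postpartum (difference in pregnancy -0.49 ± 0.1012 SE, adjusted p = 0.0214). That call was lost without either pre-pregnancy array or pregnancy replicate 1. Mrpl14, which sits at the interface of the subunits, stood at 10.29 and 10.27, then 9.82 and 9.78, then 9.99 and 9.98 (-0.48 ± 0.0963 SE, adjusted p = 0.0187), and lost its call with the same 3 arrays as Mrps27. Its postpartum pair remained nearer the pregnant than the pre-pregnancy pair, whereas that of Mrps36 lay near the pre-pregnancy pair.

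Mrpl15, a large subunit protein with a bacterial counterpart, has 8 probe sets. The probe set used stood at 11.61 and 11.51, then 11.15 and 11.10, then 11.53 and 11.64 in the order of the stages (difference in pregnancy -0.44 ± 0.1035 SE, adjusted p = 0.0319). Its name carries the suffix of probe sets that may bind other transcripts too. Of the others, 6 were lower in pregnancy by 0.32 to 0.75, and the last, at a mean of 3.44 near the floor of the arrays, by 0.02. The call of the probe set used was lost whichever of the 6 arrays was left out.

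Mrpl42, a large subunit protein specific to mitochondria, stood at 11.17 and 11.13, then 10.70 and 10.80, then 11.04 and 11.00 (-0.40 ± 0.09996 SE, adjusted p = 0.0370). It too lost its call whichever array was left out. Mrpl21 stood at 9.14 and 9.01, then 8.68 and 8.51, then 8.81 and 8.72 (-0.48 ± 0.1123 SE, adjusted p = 0.0304), a call kept without pregnancy replicate 1 and lost when any other array was left out. The size and sign of its change depend on the probe set: a dimmer set (mean 6.34) was 0.445 higher in pregnancy (adjusted p = 0.0431 over all probe sets), the last one (5.33) was 0.355 higher, and the mean of the 3 gave 0.11 (adjusted p = 0.424). Mrpl21 was the only gene of the 76 whose probe sets above the 40th percentile differed in sign with a call among them.

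**Figure D3:**
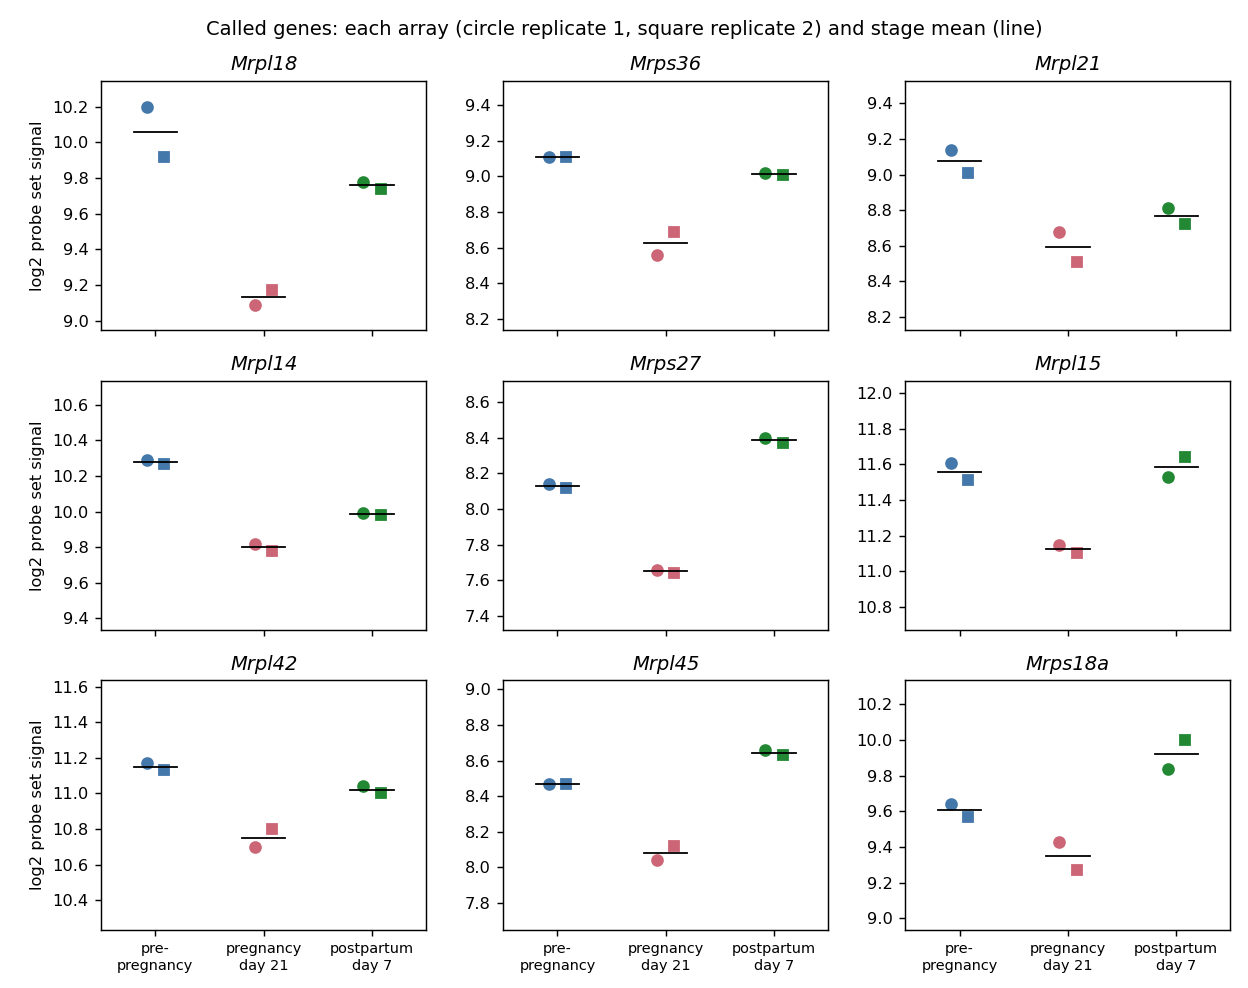
Log2 probe set signal of the 9 genes that passed limma's test in pregnancy against pre-pregnancy or in postpartum against pregnancy, for each array (circle replicate 1, square replicate 2) with the stage mean as a line; the y axis spans 1.4 in every panel. The pregnant pair is the lowest in each panel, and the postpartum pair is the highest for Mrps27, Mrpl45 and Mrps18a and lies below the pre-pregnancy pair for Mrpl18, Mrpl14, Mrpl21, Mrpl42 and Mrps36.

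Among the genes that were not called, Mrps12 (-0.35, adjusted p = 0.0689), Mrps10 (-0.34, adjusted p = 0.0755) and Mrps25 (-0.36, adjusted p = 0.0802) came closest in pregnancy. On the other side, 7 genes had both pregnant arrays above both pre-pregnancy arrays: Mrpl23, Mrpl43, Mrpl54, Mrps7, Mrps15, Mrps17 and Mrps30. Mrpl23 had the highest difference, at 10.71 and 10.42 before pregnancy and 10.77 and 11.05 in pregnancy (0.35 ± 0.1399 SE, adjusted p = 0.140). Mrps30, which despite its symbol sits in the large subunit, stood at 9.70 and 9.57, then 9.83 and 9.77, then 10.00 and 9.92, and was not called in pregnancy (0.17 ± 0.1043 SE, adjusted p = 0.319). The flattest genes over the 3 stages, on the probe sets used, were Mrpl58, Mrpl1, Mrpl57 and Mrpl40, whose stage means spanned 0.015 to 0.05. For Mrpl1 and Mrpl57 this depends on the probe set. A dimmer set of Mrpl1 (mean 7.88) differed by -0.355 in pregnancy (adjusted p = 0.0966 over all probe sets). One of Mrpl57 (mean 5.66) differed by -0.345 (adjusted p = 0.129). The pre-pregnancy arrays of the Mrpl1 set used also stood apart, at 8.86 and 8.37. Mrpl58, a peptidyl-tRNA hydrolase built into the ribosome that frees stalled peptides, stood at 10.28, 10.14, 10.20, 10.20, 10.19 and 10.24 in the order of the stages.

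The second comparison set postpartum against late gestation. The median difference of the 76 genes was 0.18, that is 13.5% higher, against -0.01 for all genes and 0.08 for the genes of at least equal brightness. The mean was higher postpartum for 65 genes (85.5%) and lower for 11. It was higher for 48.2% of all genes and for 62.7% of those at least as bright. limma called 4 of 76 higher (5.26%), where 2.41% of all genes and 4.13% of those at least as bright were called. It called 0 lower, where 0.879% and 1.67% were. At an unadjusted p under 0.05 the counts were 22 higher and 0 lower. They were 2173 and 1597 over all 18194 genes, and 1101 and 451 over the 5684 bright ones. Both postpartum arrays lay above both pregnant arrays for 47 genes (25.1% of all genes and 39.8% of the bright ones) and below for 6 (25.0% and 18.2%). This comparison shares the pregnant arrays with the preceding one, so the 2 are not independent. The count of calls was 1 when a pre-pregnancy or pregnant array was left out and 0 without either postpartum array, and the median ran from 0.15 to 0.22 over the arrays left out. After repeated quantile normalization the median was 0.11, with 1 call.

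The genes that rose were Mrps27, Mrpl18, Mrpl45 and Mrps18a. Mrps27 rose 1.66-fold (0.735 ± 0.0962 SE, adjusted p = 0.0117), from 7.66 and 7.64 to 8.40 and 8.37, and its call was kept under each of the 7 alternatives that keep all arrays of both groups, and lost without either postpartum array (adjusted p up to 0.0726). Mrpl18 rose 1.55-fold (0.63 ± 0.1212 SE, adjusted p = 0.0378) and Mrpl45 1.48-fold (0.57 ± 0.098 SE, adjusted p = 0.0284). Mrps18a, which like Mrps30 sits in the large subunit, rose 1.49-fold (0.57 ± 0.1129 SE, adjusted p = 0.0416): it stood at 9.64 and 9.57, then 9.43 and 9.27, then 9.84 and 10.00. The calls of Mrpl18, Mrpl45 and Mrps18a were each lost whichever array was left out and after repeated quantile normalization (0.55, 0.46 and 0.49). Mrpl18, Mrpl45 and Mrps27 were called both lower in pregnancy and higher postpartum, as 1.32% of all genes and 2.32% of the bright ones were. Mrpl19 (0.485 ± 0.1049 SE, adjusted p = 0.0520), Mrpl15 (0.46 ± 0.1035 SE, adjusted p = 0.0574) and Mrps12 (0.455 ± 0.1073 SE, adjusted p = 0.0648) came closest among the rest.

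The last comparison set postpartum against the state before pregnancy. The median difference was 0.03 (0.03 for all genes, 0.02 for those at least as bright), with 44 genes higher (57.9%) and 32 lower. The mean was higher for 55.4% of all genes and for 52.4% of those at least as bright. limma called 0 of 76 higher and 0 lower, where 3.91% and 3.75% of all genes and 7.09% and 5.84% of the bright ones were called. At an unadjusted p under 0.05 the counts were 6 higher and 6 lower. They were 2218 and 1952 over all 18194 genes, and 1111 and 951 over the 5684 bright ones. Both postpartum arrays lay above both pre-pregnancy arrays for 23 genes (30.0% of all genes and 37.3% of the bright ones) and below them for 14 (22.6% and 31.2%). The median 95% interval of a gene's difference, unadjusted, was 0.258 either side; after adjustment the smallest difference called in any comparison was 0.39. Mrpl28 had the highest difference, at 10.24 and 10.09 before pregnancy and 10.51 and 10.59 postpartum (0.385, 95% interval 0.14 to 0.63, adjusted p = 0.0676). Mrpl32 had the lowest, at 10.59 and 10.18 and then 9.97 and 9.85 (-0.475, 95% interval -0.82 to -0.13, adjusted p = 0.0947). The median rests on single arrays: it was 0.075 without pre-pregnancy replicate 1, -0.0325 without replicate 2, 0.0625 without postpartum replicate 1 and -0.0025 without replicate 2.

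A test for any difference among the 3 stages (limma's moderated F) called 8 of the 76 genes (13.8% of all genes and 22.1% of the bright ones were called): Mrpl14, Mrpl15, Mrpl18, Mrpl19, Mrpl45, Mrps18a, Mrps27 and Mrps36. In all, 66 of the 76 genes passed none of these tests on the probe set used. The F test called 2 to 3 genes when any 1 array was left out, and 3 after repeated quantile normalization.

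**Figure D4:**
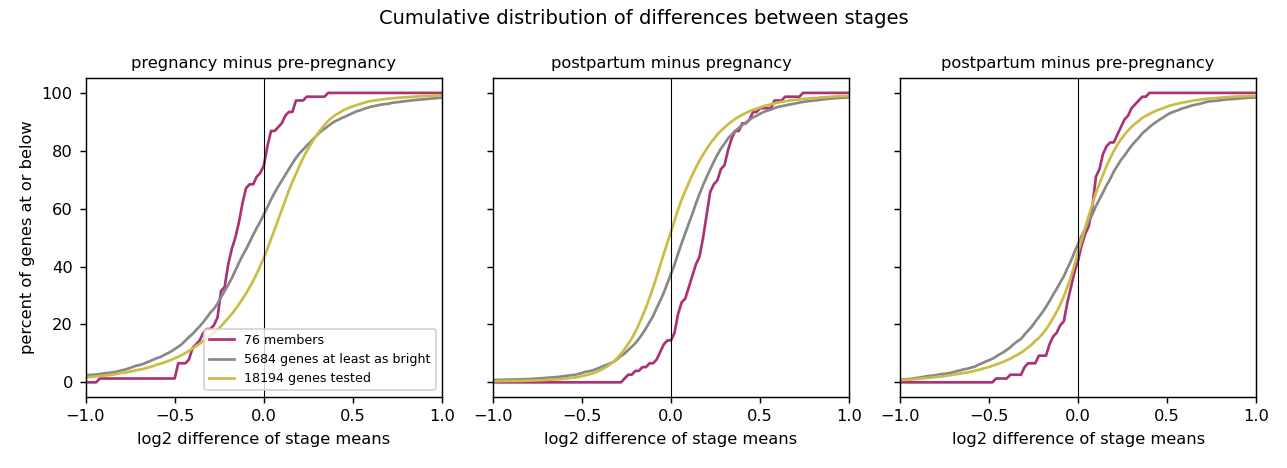
Cumulative percent of genes (y axis) at or below each log2 difference of stage means (x axis, from -1 to 1) in the 3 comparisons, for the 76 members, the 5684 genes at least as bright and all 18194 genes. The middle of the members' curve lies left of the others in pregnancy (median -0.16) and right of them postpartum against pregnancy (0.18). In pregnancy its upper tail lies left too, at 97.37% at 0.2, against 79.13% of the bright genes and 74.88% of all genes. Its lower tail does not: at -0.5 it is at 1.32%, against 11.49% and 8.29%. Postpartum against pregnancy the lower tail lies right, at 0% at -0.28, against 9.13% and 9.92%. The upper tail there does not: at 0.5 the members' curve is at 94.74%, against 92.8% and 94.99%. In the last panel (median 0.03) it is steeper, and crosses the others between 0.06 and 0.1.

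By subunit and origin, each group of proteins had a median below 0 in pregnancy and above 0 postpartum. Of 29 large subunit proteins with a bacterial counterpart, 4 fell in pregnancy with a median of -0.19, and 1 rose postpartum with a median of 0.18. Of 20 large subunit proteins specific to mitochondria, which include Mrps30 and Mrps18a, 2 fell (median -0.09) and 2 rose (0.14). Of 16 small subunit proteins with a counterpart, 0 fell (median -0.17) and 0 rose (0.21). Of 10 small subunit proteins without one, 1 fell (median -0.13) and 1 rose (0.19). These counts stand beside 8.25% of all genes and 12.5% of the bright ones called lower in pregnancy, and 2.41% and 4.13% called higher postpartum. The difference between these groups was not tested. For 30 genes more than 1 probe set lay above the 40th percentile, and of the 51 probe sets of these genes that were not used, 37 had the sign of the probe set used in pregnancy and 42 postpartum, with medians of -0.22 and 0.18. In a fit over all probe sets, 10 of these 51 were called lower in pregnancy and 1 higher, and 3 were called higher postpartum. The share of all probe sets called is not given here. The lower calls include dimmer sets of genes not called on the set used: Mrpl13 (-0.695, adjusted p = 0.0119), Mrps14 (-0.59, adjusted p = 0.0107) and Mrpl35 (mean 5.78, -0.95, adjusted p = 0.00259).

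The promoters of the 4 genes with the largest called differences in any comparison, Mrpl18, Mrps27, Mrps18a and Mrpl45, are shown. These are also the genes that rose postpartum. Their promoters are marked for motifs often named for nuclear genes of mitochondrial function. The sequences are the 250 bases before the transcription start in RefSeq on GRCm38.p6, written 5′ to 3′ on the strand of the gene. Capitals mark matches on either strand to the NRF1-type motif (GCGCA and GCGC with any base between them), to CCGGAAG (the core bound by ETS factors such as GABPA) and to AAGATGGCG (the YY1-type motif).

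Mrpl18, chr17:12916092-12916341, minus strand: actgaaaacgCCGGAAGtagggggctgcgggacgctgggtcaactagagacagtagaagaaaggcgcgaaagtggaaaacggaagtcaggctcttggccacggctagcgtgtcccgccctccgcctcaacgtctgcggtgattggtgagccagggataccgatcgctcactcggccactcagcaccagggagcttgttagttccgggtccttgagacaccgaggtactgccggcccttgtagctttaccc
Mrps27, chr13:99344536-99344785, plus strand: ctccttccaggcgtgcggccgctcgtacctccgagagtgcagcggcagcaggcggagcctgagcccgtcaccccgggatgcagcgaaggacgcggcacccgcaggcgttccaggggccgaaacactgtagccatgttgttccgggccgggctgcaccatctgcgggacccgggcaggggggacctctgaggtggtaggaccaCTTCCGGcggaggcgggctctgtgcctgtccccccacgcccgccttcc
Mrps18a, chr17:46110754-46111003, plus strand: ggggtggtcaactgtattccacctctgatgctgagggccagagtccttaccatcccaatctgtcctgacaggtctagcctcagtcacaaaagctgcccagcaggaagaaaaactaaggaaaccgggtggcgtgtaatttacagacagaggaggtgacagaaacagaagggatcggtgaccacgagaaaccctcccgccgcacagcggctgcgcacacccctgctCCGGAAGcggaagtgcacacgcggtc
Mrpl45, chr11:97315466-97315715, plus strand: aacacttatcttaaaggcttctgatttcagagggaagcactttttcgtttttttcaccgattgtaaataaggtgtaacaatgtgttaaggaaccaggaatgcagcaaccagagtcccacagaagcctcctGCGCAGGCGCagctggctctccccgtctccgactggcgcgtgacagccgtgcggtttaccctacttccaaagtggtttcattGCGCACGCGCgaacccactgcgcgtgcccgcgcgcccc

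The ETS-type core begins 240 bases before the start in Mrpl18, 48 before it in Mrps27 (on the other strand) and 26 before it in Mrps18a, and Mrpl45 holds the NRF1-type motif 120 and 38 bases before its start and again 16 bases after it (on the other strand). The YY1-type motif follows the start by 15 bases in Mrps27 and by 12 in Mrps18a, where the flanks are alike as well; capitals mark it in the stretches of 25 bases around it.

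Mrps27, chr13:99344792-99344816, plus strand: tgcgctccAAGATGGCGgctcccat
Mrps18a, chr17:46111007-46111031, plus strand: tgcgttccAAGATGGCGgccctcag

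Motifs were counted on both strands in windows of 300 bases, 250 before and 50 after the start, with overlapping matches allowed. Of the 76 genes, 67 had such a window in RefSeq. The ETS-type core was in the windows of 25 of these 67 genes (37.3%; 9.93% of all genes and 8.86% of all promoters), the NRF1-type motif in 12 (17.9%; 5.19% and 4.6%) and the YY1-type motif in 8 (11.9%; 1.64% and 1.4%). CACGTG, the E-box bound by Myc, was in 5 (7.46%; 8.09% and 7.15%), and CCAAT in 26 (38.8%; 41.1% and 37.4%). Of the 8 genes called in either comparison that had a window, 4 held the ETS-type core, 2 the NRF1-type motif and 3 the YY1-type motif, and of the 59 others 21, 10 and 5 did. These are matches of letters, no measure of binding.

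Some of the genes start close to a gene that runs the other way. The share of all genes that do so is not given here, so the count marks no trait of these genes. A start on the other strand lay within 1000 bases upstream for 25 of the genes with a measured partner, at distances of 8 to 935 bases; Mrpl46 and Mrps11 are partners of each other, 42 bases apart, so these are 24 distinct pairs. In pregnancy 19 of the 25 partners had a lower mean, with a median of -0.12, and 1 was called lower and 2 higher. Of all genes 42.4% had a lower mean (57.7% of the bright ones), 8.25% were called lower and 5.46% higher. Postpartum against pregnancy 18 of the partners had a higher mean, with a median of 0.14, and 2 were called higher. Of all genes 48.2% had a higher mean there (62.7% of the bright ones) and 2.41% were called higher.

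Values of the partners stand beside those of 4 called genes. Tcp1, a subunit of the cytosolic chaperonin that starts 238 bases from Mrpl18, differed by -0.22 ± 0.114 SE in pregnancy (adjusted p = 0.240), where Mrpl18 fell by 0.93, and by -0.26 ± 0.114 SE postpartum (adjusted p = 0.255), where Mrpl18 rose. Ptcd2, a mitochondrial RNA-processing protein that starts 108 bases from Mrps27, differed by -0.07 ± 0.106 SE in pregnancy (adjusted p = 0.688) and rose postpartum by 0.50 ± 0.106 SE (adjusted p = 0.0490), beside the 0.735 of Mrps27. The Ptcd2 call was lost after repeated quantile normalization (0.42). Ighmbp2, a helicase gene that starts 32 bases from Mrpl21, rose in pregnancy by 0.565 ± 0.135 SE (adjusted p = 0.0324), opposite to the brightest Mrpl21 probe set. Tmem63b, 131 bases from Mrpl14, differed by -0.06 ± 0.129 SE in pregnancy (adjusted p = 0.784). The difference between a gene and its partner was not tested.

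Genes that serve the same ribosome were compared from lists of mitochondrial translation and maintenance. The calls in each list stand beside 8.25% of all genes called lower and 5.46% higher in pregnancy. Postpartum against pregnancy, 2.41% of all genes were called higher and 0.879% lower. Of the genes at least as bright as the dimmest member, these shares were 12.5%, 7.92%, 4.13% and 1.67%. Of 4 measured ribosomal proteins with other symbols (Dap3, Ptcd3, Chchd1 and Gadd45gip1), 0 were called in any comparison; their medians were -0.18 in pregnancy and 0.20 postpartum. Of 12 translation factors, 1 fell in pregnancy (median -0.03) and 0 were called postpartum (0.07). The gene that fell was Guf1, a translation-associated GTPase, at 6.02 and 5.60, then 4.88 and 4.83, then 4.93 and 4.88 (adjusted p = 0.00742); its later levels were under the 40th percentile, so no fold is given. The elongation factor Tufm stood at 10.35 and 10.39, then 10.56 and 10.49, then 10.68 and 10.70 (0.155 in pregnancy, adjusted p = 0.319).

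Of 22 ribosome assembly genes, 2 fell in pregnancy (9.09%, median -0.14) and 1 rose postpartum (4.55%, median 0.12), shares near those backgrounds. Trub2, a pseudouridine synthase, stood at 7.77 and 7.63, then 7.32 and 7.20, then 7.86 and 7.88, and was called in both (-0.44, adjusted p = 0.0338; 0.61, adjusted p = 0.0288). Noa1, an assembly GTPase, fell (-0.46, adjusted p = 0.0245). Both falls were lost after repeated quantile normalization. Of 19 mitochondrial tRNA synthetase genes, Nars2 (-0.68, adjusted p = 0.0256) and Yars2 (-0.66, adjusted p = 0.0232) fell in pregnancy and Wars2 rose (0.545, adjusted p = 0.0491), with a median of -0.13. Postpartum, Cars2 (0.50, adjusted p = 0.0442) and Tars2 (0.555, adjusted p = 0.0310) rose, with a median of 0.21.

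Among the mitochondrial lists, that of DNA and RNA maintenance had the lowest median in pregnancy (-0.24), with 7 of 20 genes called lower and 1 higher. Of all genes 8.25% and 5.46% were, and of the bright ones 12.5% and 7.92%. After repeated quantile normalization 6 of the 7 lower calls were lost and 1, Pnpt1, was kept. Tbrg4, an RNA-stability factor, was called in both comparisons, at 8.57 and 8.41, then 8.06 and 7.86, then 8.57 and 8.83 (-0.53, adjusted p = 0.0374; 0.74, adjusted p = 0.0310). Pnpt1 (-0.64), Polg2 (-0.64), Supv3l1 (-0.48), Tfam (-0.475), Trmt10c (-0.47) and Lrpprc (-0.465) fell too. Tfam, which packs mitochondrial DNA and starts its transcription, stood at 10.12 and 9.94, then 9.67 and 9.44, then 9.59 and 9.63, and its difference postpartum against pregnancy was 0.06 (adjusted p = 0.840). Polg, the catalytic subunit of the mitochondrial DNA polymerase, rose in pregnancy from 8.57 and 8.65 to 9.50 and 9.25 (0.765, adjusted p = 0.00771), opposite to its accessory subunit Polg2. Of 19 genes of mitochondrial mass and import, 1 fell in pregnancy (Hspe1, -0.455, adjusted p = 0.0281, median of the list -0.17), and 1 rose postpartum (Mfn2, 0.48, adjusted p = 0.0427, median 0.13). Cs, the citrate synthase often used to gauge mitochondrial content, stood at 10.15 and 10.25, then 10.41 and 10.15, then 10.92 and 10.71, and was called higher postpartum against pre-pregnancy (0.615, adjusted p = 0.0313). Of the 16 calls of these lists and the regulators in pregnancy, 0 were kept in all 6 fits that leave out an array, 1 was lost in all 6, and 8 were kept after repeated quantile normalization, Polg, Yars2, Nars2 and Pnpt1 among them. Of the 5 calls postpartum, 3 were lost in all 6 of these fits and 1 (Trub2) was kept after that normalization.

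**Figure D5:**
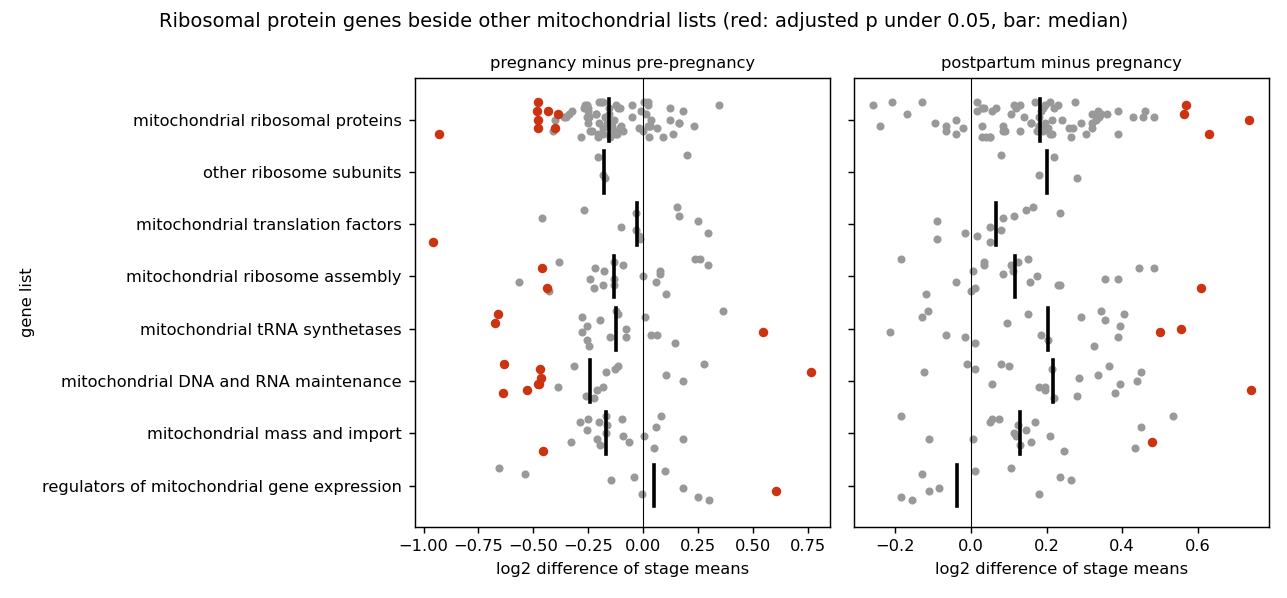
Log2 difference of stage means (x axis) of each gene in pregnancy against pre-pregnancy (left) and postpartum against pregnancy (right), for the mitochondrial ribosomal protein genes and 7 other lists (rows). Red points passed limma's test, bars are medians. The medians of the ribosomal proteins are -0.16 and 0.18, and those of the regulators 0.05 and -0.04.

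Of 10 regulators of mitochondrial gene expression, 1 was called in pregnancy (higher, as 5.46% of all genes were) and 0 postpartum. Nrf1, the factor of the NRF1-type motif, rose from 5.90 and 6.21 to 6.60 and 6.72 (0.605, adjusted p = 0.0315), with postpartum arrays at 6.42 and 6.68. Gabpa, an ETS factor, stood at 9.86 and 9.70, then 9.37 and 9.11, then 9.38 and 8.84 (-0.54 in pregnancy, adjusted p = 0.0921). The coactivator Ppargc1a stood at 8.12 and 8.01, then 7.51 and 7.31, then 7.82 and 7.21 (-0.655, adjusted p = 0.0596). Yy1 (0.25), Ppargc1b (0.18), Pprc1 (0.10), Gabpb1 (-0.01), Esrra (-0.04) and Perm1 (0.30, near the floor of the arrays) were not called in pregnancy. Myc differed by -0.15, and its pregnant arrays stood far apart at 6.44 and 7.82.

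Other large sets of the same origin or function had these values. Of 82 oxidative phosphorylation subunit genes, taken by their symbols, 8 fell and 1 rose in pregnancy with a median of -0.20, and 4 rose postpartum with a median of 0.18; in 57.3% of them both pregnant arrays lay below the other 4. Over all genes 8.25% fell and 5.46% rose in pregnancy, 2.41% rose postpartum, and 13.8% (22.9% of the bright ones) had that order of arrays. The 43 measured cytosolic ribosomal protein genes had medians of -0.02 in pregnancy, with 1 called lower, and 0.13 postpartum, with 0 called. In 32.6% of them both pregnant arrays lay below the other 4. The mean was lower in pregnancy for 76.8% of the oxidative phosphorylation genes and 53.5% of the cytosolic ones, beside 75% of the 76 genes. Postpartum against pregnancy it was higher for 86.6% and 88.4%, beside 85.5%. Differences between these sets were not tested.

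In whole liver, fewer cells of a type and less RNA per cell cannot be told apart. Marker lists of other cell types moved beside the ribosomal proteins. Over all genes 8.25% were called lower and 5.46% higher in pregnancy. The 8 endothelial markers had summed linear signals of 6030 and 4750, then 4064 and 4026, then 4014 and 3765, with 3 called lower in pregnancy and 0 called postpartum against pregnancy. The 8 Kupffer cell and macrophage markers summed to 7883 and 8335, then 7704 and 6210, then 8005 and 8701, with 1 called lower in pregnancy, and the 7 stellate markers to 9069 and 8758, then 7516 and 7572, then 7515 and 6363, also with 1. The 6 neutrophil markers summed to 246 and 272, then 351 and 370, then 273 and 275, with 2 called higher in pregnancy; 2 of the 6 were above the 40th percentile. Of the 4 bile duct, 4 erythroid, 4 lymphocyte and 3 pancreatic acinar markers, 1, an acinar marker, was called in pregnancy (lower; summed signals of 1370 and 1462, then 620 and 706, then 751 and 698). The log2 signal of the 3′ over the 5′ control probe set of Gapdh, a measure of RNA integrity, was -0.02 and 0, then 0.09 and 0.27, then 0.29 and 0.30; that of Actb was 1.27 and 1.19, then 1.06 and 1.21, then 1.44 and 1.43. The part of these in the results above was not tested.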

How the data were processed

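RNA from 6 liver samples was hybridised to Affymetrix mouse arrays after biotin labelling, per the labels' protocols. The deposited table holds log2 values of 45101 probe sets; RMA and Affymetrix Power Tools are named in the submitters' processing notes, without versions or settings, and the log2 base was inferred from the range. RMA compresses differences near the floor. The deposited arrays were not equal in distribution (medians 5.09 to 5.15), and normalizing them again moved the members' medians, so it is not known over which arrays the authors normalized; the medians reported depend on this. Of the probe sets, 34958 had 1 symbol and 932 had several, which were not used; 0 symbols changed in the RefSeq gene table. Differences were fitted across all genes in limma (version 3.58.1, R 4.3.3), by lmFit and eBayes on stage means over all 6 arrays (3 residual and 4.8 prior degrees of freedom), two-sided, with Benjamini-Hochberg adjustment over all 18194 genes and a threshold of 0.05; "called", "rose" and "fell" mean past it. SE is the moderated standard error, and intervals are at 95%. With 2 arrays a group, an exact permutation test of a single gene cannot go below p = 0.333. The number of arrays limits the precision.

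Genes were named by rule: the called members with the largest differences, the 4 brightest, dimmest and flattest members, members with discordant probe sets, members placed outside their named subunit, called genes of the other lists, and all regulators. Mrps10, Mrps12, Mrpl19, Mrpl23, Mrpl28, Mrpl32, Tufm, Cs and the partner genes were added with their values in view. The members and lists were chosen with earlier results of these data known, as were the symbol rules for the oxidative phosphorylation and cytosolic ribosomal genes. Promoters are from RefSeq on GRCm38.p6, and no promoter was used for 9 members. Alternatives were a block for the replicate number, no dim genes, 2 other scalings, another variance model, the mean of all probe sets, each array left out, a fit of the compared groups alone and a threshold of 0.1.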

Additional observations from a re-analysis of the deposited data

How the results depend on the processing

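After repeated quantile normalization, in pregnancy against pre-pregnancy the median of the 76 genes was -0.0619 with 3 called lower; postpartum against pregnancy it was 0.11 with 1 called higher and 22 with a lower mean, postpartum against pre-pregnancy 1 was called higher, and the F test called 3. Centring arrays on their medians gave -0.19 and 0.21. With a trended, robust variance 7 rose postpartum against pregnancy and 1 against pre-pregnancy. Fitting only the 2 groups compared left 4 falls and 1 rise. At a threshold of 0.1, 13 fell in pregnancy, 9 rose postpartum, 2 were higher and 1 lower postpartum against pre-pregnancy, and the F test called 13. The mean of all probe sets turned Mrpl21 in pregnancy to 0.11. For these alternatives, and for those below, the shares of all genes called are not given here. The counts of calls under them, wherever quoted, therefore stand without a background.

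Leaving out each array gave 1 to 4 falls in pregnancy (median -0.24 to -0.10), 0 to 1 rises postpartum (median 0.15 to 0.22), medians of -0.0325 to 0.075 and 20 to 42 genes with a lower mean in postpartum against pre-pregnancy, and 2 to 3 calls in the F test. A group left with 1 array is assumed to vary like the others.

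The replicate numbers did not pair the samples: replicate differences correlated across genes at 0.0285, -0.0273 and 0.111 between stages. With the replicate number as a block 8 genes fell in pregnancy and 3 rose postpartum, Mrps18a not among them.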
